A study of Mus musculus with 12 samples.

Results

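The 10 genes described here encode chaperones of the endoplasmic reticulum and regulators of the unfolded protein response: Hspa5, Hsp90b1, Pdia4, Pdia6, Calr, Canx, Atf4, Ddit3, Xbp1 and Herpud1. They were found by gene symbol in tables of 24346 genes. The rule uses no measured value, but the list was drawn up with earlier results of these data known, so it is not independent of them. All 10 were found, and all 10 were among the 17380 genes that passed a filter on low counts and were tested. The study asked how expression in midbrain dopaminergic neurons of C57BL/6 mice differs after preformed fibrils of G51D α-synuclein, a form of the protein linked to familial Parkinson's disease, are placed in the substantia nigra. Libraries of amplified cDNA were made from cells positive for the fluorescent reporter hKO1, which were dissected from midbrain and sorted, per the labels.

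The 12 libraries fall into 4 groups of 3. One group received synuclein fibrils on both sides of the nigra (20 µg at 5 µg/µL) and was taken 12 weeks later, and a group injected with saline on both sides was taken at the same time. Another pair of groups, synuclein and saline, was taken 7 weeks after the same injections. All libraries share the strain and the sort for hKO1. The labels call the cells neural cells and do not give the promoter behind the reporter, the age of the mice or whether replicates came from separate animals. The p-values therefore reflect only how far these samples differ from one another. Dopaminergic markers were present in every library, with a summed level over 8 genes of 503.9 to 2354 CPM, but markers of other cells were more abundant. Myelinating oligodendrocyte markers summed to 15660 to 42440 CPM and endothelial markers to 7411 to 18040 CPM. The values below are thus averages over mixed cells, and fewer cells of a type and less RNA per cell cannot be told apart. CPM is the count of a gene scaled to a common library total after TMM normalisation, and FPKM is also scaled to transcript length.

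Proteins bound for the membrane or for secretion are folded in the endoplasmic reticulum, where chaperones hold them, disulfide isomerases join their cysteines and lectin chaperones read their sugars. When unfolded protein builds up there, the sensors IRE1, PERK and ATF6 start the unfolded protein response. IRE1 splices the Xbp1 transcript, PERK slows translation while favouring that of Atf4, and cleaved ATF6 enters the nucleus, and together these factors raise transcription of chaperones, of degradation genes such as Herpud1 and, when stress persists, of Ddit3. Neurons, which make many membrane and secreted proteins, rely on this system.

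Most of the chaperone genes share a sequence feature before their starts. The endoplasmic reticulum stress element, CCAAT followed by any 9 bases and CCACG, was searched on both strands in the 250 bases before the start of each gene in RefSeq for GRCm38.p6. It was found for 5 of the 10 genes, Hspa5, Hsp90b1, Pdia6, Calr and Canx, against 0.113% of 32851 promoters of the same length. Pdia4, the remaining chaperone or isomerase gene, had no exact match in its window, nor did Atf4, Ddit3 or Xbp1. Only exact matches were counted, and near forms also occur. On the other strand, Pdia4 holds CCAAT, 9 bases and CCACT, and Ddit3 holds CCAAT, 9 bases and GCACG, each 1 letter from the element. The share of all promoters with such near forms was not counted. A shorter form, ATTGG, 1 base and CCACG, was found for Herpud1, against 0.0304% of promoters. Herpud1 also held a match to TGATGNAA, a form of the composite C/EBP and ATF element, on the minus strand, as did 3.45% of promoters. The 6 promoters with a match to either stress element are shown because they carry what these genes have in common. Each is written along the strand of its gene, with the matches to the 2 stress elements and to TGATGNAA in capitals.
Hspa5, chr2:34771840-34772089, plus strand: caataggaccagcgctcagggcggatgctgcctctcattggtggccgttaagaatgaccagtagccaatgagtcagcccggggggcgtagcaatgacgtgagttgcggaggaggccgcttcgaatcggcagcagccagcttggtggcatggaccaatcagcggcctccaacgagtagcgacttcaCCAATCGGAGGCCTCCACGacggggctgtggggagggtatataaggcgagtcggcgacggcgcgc
Hsp90b1, chr10:86705445-86705694, minus strand: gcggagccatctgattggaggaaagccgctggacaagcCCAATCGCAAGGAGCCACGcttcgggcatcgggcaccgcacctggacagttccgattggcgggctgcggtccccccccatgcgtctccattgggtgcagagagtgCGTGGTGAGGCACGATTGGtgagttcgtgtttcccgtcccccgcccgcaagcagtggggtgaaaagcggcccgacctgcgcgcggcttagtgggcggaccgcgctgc
Pdia6, chr12:17266339-17266588, plus strand: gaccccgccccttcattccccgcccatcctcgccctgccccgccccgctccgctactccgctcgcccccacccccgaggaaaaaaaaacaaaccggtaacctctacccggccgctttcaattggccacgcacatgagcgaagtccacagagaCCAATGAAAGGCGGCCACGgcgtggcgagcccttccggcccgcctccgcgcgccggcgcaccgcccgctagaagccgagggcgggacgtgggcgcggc
Calr, chr8:84846932-84847181, minus strand: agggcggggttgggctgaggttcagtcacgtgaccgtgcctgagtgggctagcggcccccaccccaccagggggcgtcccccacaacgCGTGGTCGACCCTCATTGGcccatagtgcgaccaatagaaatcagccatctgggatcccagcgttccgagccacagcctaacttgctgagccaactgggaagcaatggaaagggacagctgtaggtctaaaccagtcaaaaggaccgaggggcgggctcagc
Canx, chr11:50325674-50325923, minus strand: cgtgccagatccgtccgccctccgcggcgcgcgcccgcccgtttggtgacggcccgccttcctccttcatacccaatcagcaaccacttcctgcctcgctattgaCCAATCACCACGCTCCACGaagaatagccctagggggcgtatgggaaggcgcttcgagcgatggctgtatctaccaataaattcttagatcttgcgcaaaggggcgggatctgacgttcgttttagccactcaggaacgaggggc
Herpud1, chr8:94386179-94386428, plus strand: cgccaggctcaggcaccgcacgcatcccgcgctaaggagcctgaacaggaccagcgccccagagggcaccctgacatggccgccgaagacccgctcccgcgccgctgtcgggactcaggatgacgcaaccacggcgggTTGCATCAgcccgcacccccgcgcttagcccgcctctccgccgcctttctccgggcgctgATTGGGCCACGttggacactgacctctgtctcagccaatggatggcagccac
The match in Hspa5 ran from base -65 to base -47 before the start. Hsp90b1 had 2 matches, from -212 to -194 and, on the other strand, from -107 to -89. The match lay at -98 to -80 in Pdia6, at -162 to -144 on the other strand in Calr, and at -145 to -127 in Canx. In Herpud1 the short form lay at -52 to -42 and the TGATGNAA match at -112 to -105. The parts of these elements are common by themselves: CCAAT stood in 9 of the 10 promoters and in 33.8% of all, and CCACG in 7 of the 10 and in 28.3% of all. TGACGTGG, bound by XBP1 and ATF6, was in 0 of the 10 windows and in 0.563% of all promoters. Matches describe letters in these windows and are not measured binding sites, and every stress element match also contains a CCAAT and a CCACG.

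Per length of transcript, all 10 genes were expressed at a similar order of magnitude. Averaged over the 12 libraries, Hspa5 stood first at 148 ± 60.5 FPKM, followed by Hsp90b1 at 132 ± 27.0 and Calr at 118 ± 33.5 FPKM (SD, n = 12). Canx averaged 91.3, Herpud1 82.0, Pdia6 70.7, Xbp1 70.0, Ddit3 65.2, Atf4 61.9 and Pdia4 46.0 FPKM. Neighbours in this order were not separated by their spread: the higher of a neighbouring pair exceeded the lower in only 5 to 10 of the 12 libraries, with the fewest for Canx over Herpud1 and the most for Calr over Canx. Relative variation over libraries was smallest for Hsp90b1 and Canx, with a coefficient of variation of 20.0% each in CPM, and largest for Hspa5 at 40.6%. Ddit3, the least counted, rested on 79 to 233 fragments per library, and the others on 132 to 2636.

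**Figure D1:**
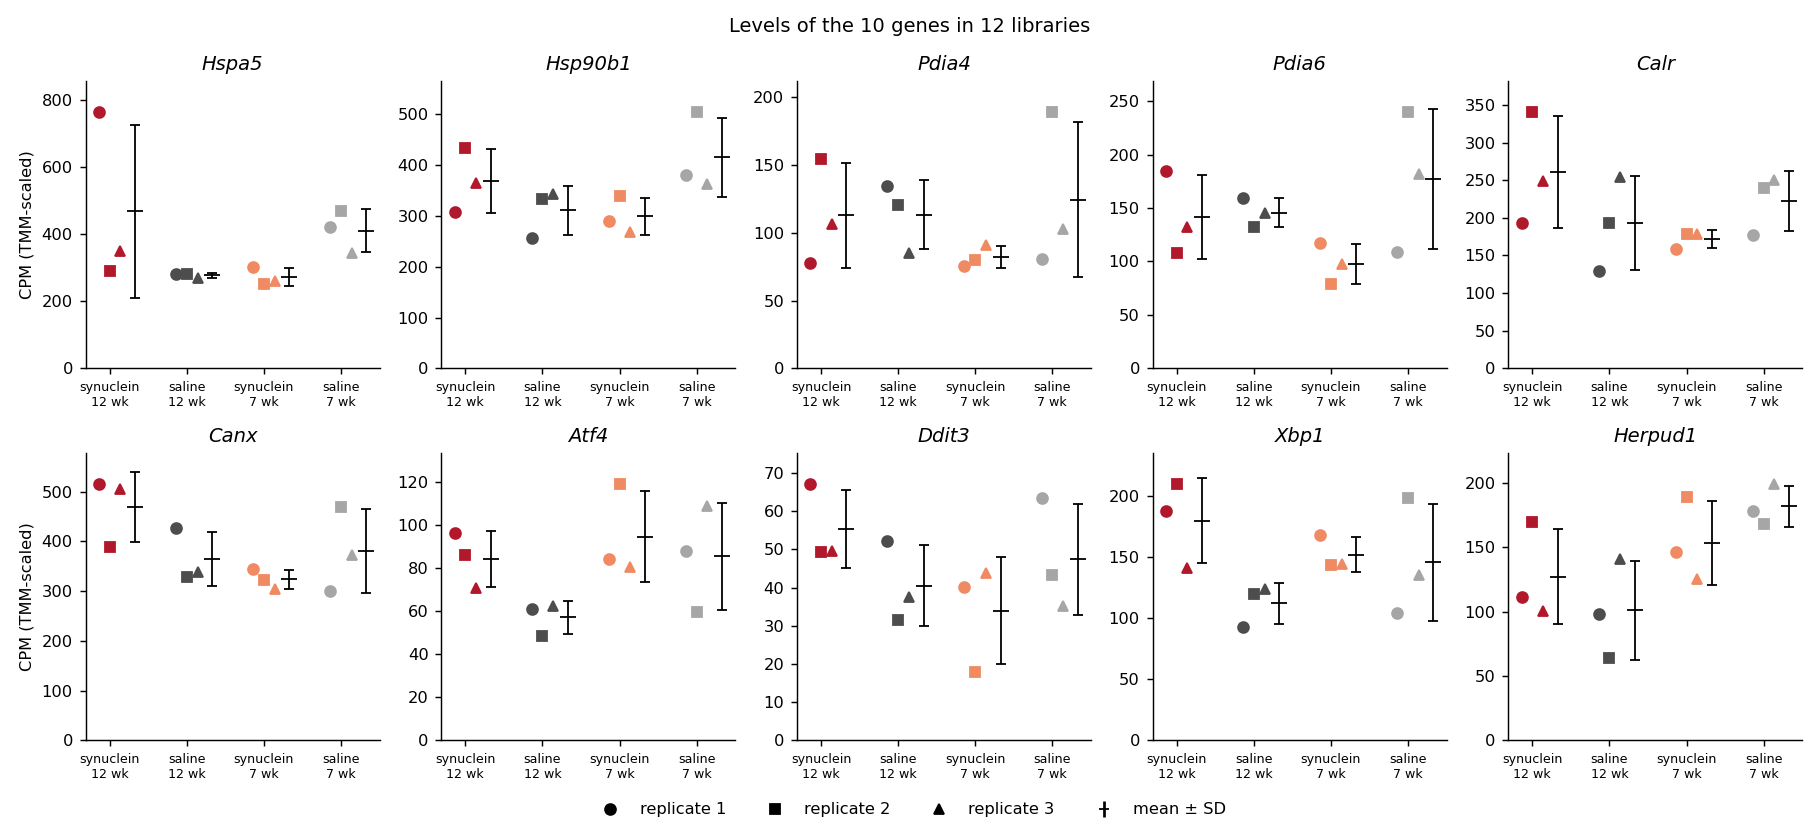
Level of each of the 10 genes in CPM (y axis, linear, from 0) in the 12 libraries, by group, with the mean and SD of 3 libraries beside the points. Hspa5 in replicate 1 of synuclein at 12 weeks stands at 766 CPM, above its range of 253 to 471 CPM in the other 11 libraries.

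Hspa5 encodes BiP, the Hsp70 chaperone of the endoplasmic reticulum that holds the stress sensors inactive until unfolded protein draws it away (chromosome 2, 34772090 to 34776529). At 12 weeks it had 766, 289.6 and 350.2 CPM after synuclein, against 283, 281.5 and 269.6 CPM after saline. Replicate 1 of synuclein was far above the others, and replicate 2 was above the highest saline library by only a small margin, so the groups did not overlap. At 7 weeks the order was the other way, with 302, 253 and 260.0 CPM after synuclein and 421, 471 and 343 CPM after saline, and again no overlap. The log2 fold was 0.75 ± 0.29 (SE) at 12 weeks (edgeR adjusted p = 0.89) and -0.60 ± 0.29 at 7 weeks (edgeR adjusted p = 1.0). The synuclein effect was thus larger at 12 than at 7 weeks by 1.35 ± 0.41 on the log2 scale, the largest of the 10 genes, and did not pass the test (edgeR adjusted p = 0.95). Without replicate 1 of synuclein at 12 weeks the 12-week fold was 0.20 and the difference between times 0.80.

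Hsp90b1 encodes GRP94, the Hsp90 chaperone of the same compartment, which folds integrins and Toll-like receptors (chromosome 10, 86690841 to 86705444). It had 307, 433 and 366 CPM after synuclein at 12 weeks, against 256, 333 and 343 CPM after saline, and these ranges overlapped. Synuclein libraries at 7 weeks had 289.8, 339 and 269 CPM and saline libraries 380.4, 505 and 362 CPM, with every synuclein library below every saline library. Its log2 fold was 0.25 ± 0.23 at 12 weeks and -0.48 ± 0.23 at 7 weeks, and the difference of 0.72 ± 0.32 did not pass (edgeR adjusted p = 0.95). Unlike Hspa5, it was not high in replicate 1 of synuclein at 12 weeks, where 8 of the other 11 libraries had more.

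Pdia4 and Pdia6 encode protein disulfide isomerases, which form and rearrange disulfide bonds, and PDIA6 also acts on the IRE1 and PERK sensors. Pdia4 (chromosome 6, 47796141 to 47813512) had 77.9, 154 and 106 CPM after synuclein at 12 weeks, against 135, 120.5 and 85.3 CPM after saline. The groups lay across each other, with a log2 fold of -0.01 ± 0.32. After synuclein at 7 weeks the levels were close together at 75.5, 79.9 and 90.8 CPM, while after saline they were 81.0, 189 and 103 CPM, and the groups overlapped. That 7-week log2 fold of -0.60 ± 0.32 rested on replicate 2 of saline and was -0.16 without it. The difference between times was 0.59 ± 0.45, and 0.15 without that library.

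Pdia6 (chromosome 12, 17266595 to 17324730) had 185, 108 and 132 CPM after synuclein at 12 weeks, against 159, 132 and 146 CPM after saline, a log2 fold of -0.04 ± 0.29 between overlapping groups. At 7 weeks it had 117, 78.7 and 97.4 CPM after synuclein, against 109, 240.0 and 182 CPM after saline. Only replicate 1 of saline fell within the synuclein range, and the log2 fold of -0.86 ± 0.29 was the most negative of the 10 genes at that time (edgeR adjusted p = 1.0). It was -0.57 without replicate 2 of saline. Between times the effect differed by 0.82 ± 0.41. Pdia6 shares its listed locus with Atp6v1c2 on the opposite strand, and the sources used here do not say whether counting used the strand, so reads in their overlap may belong to either gene. Pdia4 shares its locus with Mir704 on the same strand, which strand-aware counting would not separate.

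Calr and Canx encode calreticulin and calnexin, the soluble and the membrane-bound lectin chaperone that hold glycoproteins while their sugars are trimmed, and calreticulin also stores calcium. Calr (chromosome 8, 84842088 to 84846931) had 193, 341 and 249 CPM after synuclein at 12 weeks, against 129.6, 194 and 255 CPM after saline. The ranges overlapped, with a log2 fold of 0.44 ± 0.27 that was 0.20 without replicate 2 of synuclein and 0.74 without replicate 3 of saline. Levels at 7 weeks were 158, 179 and 178 CPM after synuclein, against 177, 240.0 and 250.2 CPM after saline, a log2 fold of -0.37 ± 0.27 with overlap in replicate 1 of saline. The difference between times was 0.81 ± 0.38.

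Canx (chromosome 11, 50293957 to 50325673) had 516, 389 and 506 CPM after synuclein at 12 weeks, against 427, 328 and 339 CPM after saline. Only replicate 1 of saline reached into the synuclein range, and the log2 fold was 0.37 ± 0.23. After synuclein at 7 weeks the levels were 344, 322 and 305 CPM, inside the wider spread after saline of 299.7, 469 and 373 CPM, with a log2 fold of -0.23 ± 0.23 that was -0.06 without replicate 2 of saline. The effect at 12 weeks exceeded that at 7 weeks by 0.60 ± 0.32. None of these folds of Pdia4, Pdia6, Calr or Canx passed the test, with edgeR adjusted p = 1.0 for each gene at 7 weeks and 0.95 for each difference.

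Atf4 encodes the transcription factor of the PERK arm, which drives amino acid supply and redox genes (chromosome 15, 80255184 to 80257545). Its protein is set mainly by translation, so its mRNA is a partial view. It had 96.5, 86.1 and 70.8 CPM after synuclein at 12 weeks, against 60.9, 48.4 and 62.3 CPM after saline, and the groups did not overlap. The log2 fold was 0.56 ± 0.27 (edgeR adjusted p = 0.89). At 7 weeks the groups overlapped, with 84.5, 119 and 80.6 CPM after synuclein and 87.9, 59.7 and 109 CPM after saline, and the log2 fold was 0.15 ± 0.27. The difference between times, 0.41 ± 0.39, was the smallest of the 10.

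Ddit3 encodes CHOP, the transcription factor that follows Atf4 when stress persists and favours cell death (chromosome 10, 127290793 to 127311786). It had 67.1, 49.4 and 49.6 CPM after synuclein at 12 weeks, against 52.2, 31.6 and 37.6 CPM after saline, with replicate 1 of saline inside the synuclein range. At 7 weeks it had 40.2, 18.03 and 43.7 CPM after synuclein, against 63.5, 43.3 and 35.3 CPM after saline. That log2 fold of -0.48 ± 0.36 rested on the low replicate 2 of synuclein and the high replicate 1 of saline, and was -0.17 without the one and -0.21 without the other. At 12 weeks the log2 fold was 0.45 ± 0.36 and the difference between times 0.93 ± 0.51. The deposited locus of Ddit3 also spans Mars, a methionyl-tRNA synthetase gene on the opposite strand. Their ends overlap in RefSeq but not in GENCODE, and reads there cannot be assigned with certainty.

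Xbp1 encodes the factor of the IRE1 arm, which drives chaperone, translocation and degradation genes (chromosome 11, 5520641 to 5525993). Only the spliced transcript gives the active factor, and the gene counts used here do not separate the spliced from the unspliced form. Xbp1 had 188, 209.8 and 141 CPM after synuclein at 12 weeks, against 93.1, 119 and 123 CPM after saline, without overlap. The log2 fold was 0.68 ± 0.26 (edgeR adjusted p = 0.89), and 0.34 when replicates 1 and 2 of synuclein were both left out. At 7 weeks it had 168, 143 and 144 CPM after synuclein, against 104, 198 and 136 CPM after saline. The synuclein libraries lay inside the saline range, with a log2 fold of 0.06 ± 0.26. The difference between times was 0.62 ± 0.36.

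Herpud1 encodes a membrane protein of the endoplasmic reticulum that gathers the ubiquitin ligase complex for degradation of misfolded proteins (chromosome 8, 94386500 to 94395358). It had 112, 169.5 and 101 CPM after synuclein at 12 weeks, against 98.3, 64.1 and 141 CPM after saline, and the groups overlapped widely. Levels at 7 weeks were 146, 189.5 and 125 CPM after synuclein, against 178, 168 and 199 CPM after saline. The log2 fold was 0.33 ± 0.29 at 12 weeks, with a range of 0.07 to 0.70 when single libraries were left out, and -0.24 ± 0.29 at 7 weeks. Between times the effect differed by 0.58 ± 0.41.

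Read across the genes, synuclein against saline leaned in opposite directions at the 2 times, and no single gene passed the test at either. At 12 weeks 8 of the 10 folds were above 0 and 2 below, with a median of 0.40, against 47.3% of all tested genes above 0 and a median of -0.04. Pdia4 and Pdia6, the 2 below 0, were close to it, and 7 to 10 of the 10 were above 0 over all alternatives run. None of the 10 had an edgeR adjusted p under 0.05, as for all genes (0.0%). At an unadjusted p under 0.05 there were 2, Hspa5 and Xbp1, both higher, against 5.57% of all genes. Hspa5, Atf4 and Xbp1 had every synuclein library above every saline library, against 4.01% of all genes. Markers of 4 cell types had mostly positive log2 folds at 12 weeks. Meningeal fibroblast markers summed to 37.8 to 72.8 CPM after synuclein and 12.3 to 22.5 CPM after saline, with all 4 tested above 0 in log2 fold, although Col1a1 was at 0 in a synuclein and Lum in a saline library. Endothelial markers were above 0 for 8 of 8, with a median log2 fold of 0.29. Ependymal and choroid plexus markers were above 0 for 4 of 5, with a median of 0.90 and sums of 12.6 to 430.5 CPM after synuclein and 28.4 to 192 CPM after saline, and Foxj1 and Tmem212 were at 0 in a synuclein library. Pan-neuronal markers were above 0 for 4 of 5, with a median of 0.18. The remaining lists had medians below 0. They were -0.14 for dopaminergic neurons (2 of 8 above 0), -0.18 for oligodendrocytes (1 of 8) and -0.75 for microglia (3 of 8). Astrocyte markers were at -0.17 (2 of 6) and pericyte and smooth muscle markers at -0.06 (3 of 6). No marker of these lists was called, and their part in the values of the 10 genes was not tested.

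At 7 weeks the folds of 2 of the 10 genes were above 0, Atf4 and Xbp1, and those of 8 below, with a median of -0.42 against 0.01 for all genes. The number above 0 was 1 or 2 in every alternative run. No gene of the 10 was called at an edgeR adjusted p under 0.05, as for all genes (0.0%), and 1, Pdia6, had an unadjusted p under 0.05, against 1.64% of all genes. In Hspa5 and Hsp90b1 every synuclein library was below every saline library, which held for 3.75% of all genes. Endothelial markers were below 0 in log2 fold for 8 of 8 at this time, with a median of -0.30, while the medians of the other marker lists ran from -0.02 for dopaminergic neurons to 1.16 for microglia. The part of these cells in the values of the 10 genes was not tested.

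Summed CPM of the 6 chaperone and isomerase genes was 1820 ± 192 after synuclein and 1410 ± 28 after saline at 12 weeks (SD, n = 3 each), with 1709 to 2044 CPM in synuclein and 1389 to 1438 CPM in saline libraries. At 7 weeks it was 1250 ± 43.8 after synuclein and 1730 ± 339 after saline, with 1200 to 1287 CPM in synuclein and 1468 to 2114 CPM in saline libraries. The groups overlapped at neither time, and they stood in the opposite order. Such a sum gives most weight to the most counted genes. At 12 weeks Hspa5 averaged 469 CPM after synuclein and 278 CPM after saline, and Canx 470 and 365 CPM. Pdia4 averaged 113 CPM after synuclein and 114 CPM after saline, and Pdia6 142 and 146 CPM. The sums thus do not show that each of the 6 genes differed. The sum of the 3 transcription factors was 320 ± 50.1 CPM after synuclein and 210 ± 12.3 CPM after saline at 12 weeks, without overlap. At 7 weeks it was 281 ± 12.2 CPM after synuclein and 279 ± 22.8 CPM after saline, with overlap.

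**Figure D2:**
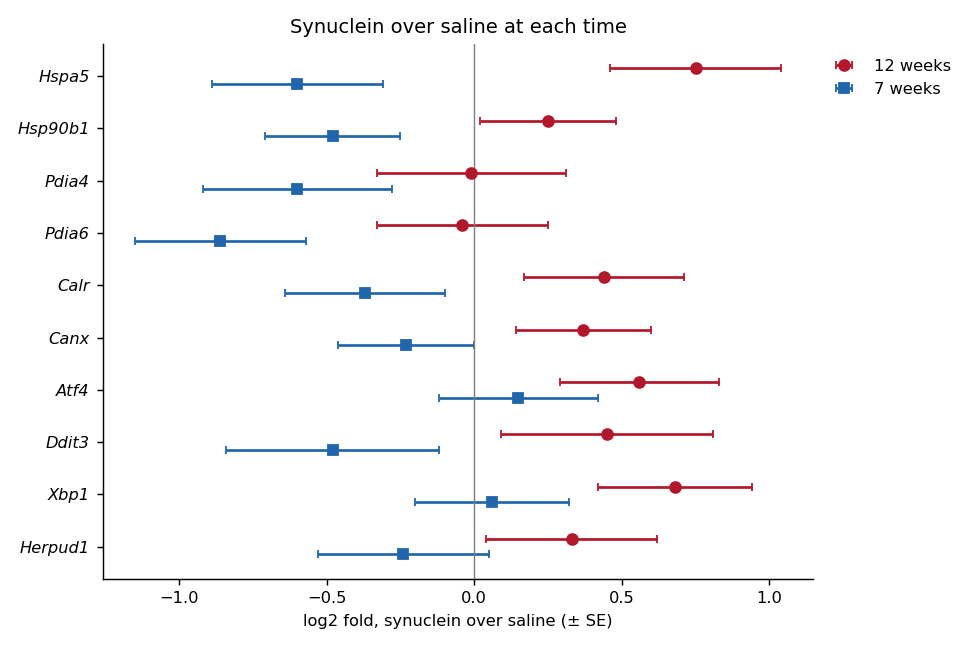
Log2 fold of synuclein over saline for each of the 10 genes, at 12 weeks (circles) and at 7 weeks (squares), with bars of 1 SE from the edgeR fit. Every 12-week point lies to the right of its 7-week point, by 0.41 for Atf4 up to 1.35 for Hspa5, and no gene passed the test.

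The difference of the synuclein effect, 12 minus 7 weeks, was tested directly as an interaction. It was above 0 for 10 of the 10 genes, with a median of 0.67, against 47.4% of all genes and a median of -0.05. The count was 10 of 10 in each of the 22 settings run, with medians from 0.53 to 0.87. By gene none had an edgeR adjusted p under 0.05, as for all genes (0.0%), and 3 had an unadjusted p under 0.05, Hspa5, Hsp90b1 and Calr, against 4.49% of all genes. Hspa5 alone of the 10 was below saline in every library at 7 weeks and above it in every library at 12 weeks, a pattern held by 35 genes or 0.201% of those tested. The difference was also above 0 for 8 of 8 endothelial markers, at a median of 0.57. Their summed level was 8032 to 12670 CPM after synuclein and 7411 to 9919 CPM after saline at 12 weeks, and 9472 to 14180 CPM after synuclein and 10290 to 18040 CPM after saline at 7 weeks, with none at 0 in any library. Meningeal fibroblast markers had a median of 1.07, with 3 of 4 above 0. In the other direction, microglial markers were below 0 for all 8, at a median of -1.57, with summed levels of 47.4 to 115 CPM after synuclein and 73.0 to 155 CPM after saline at 12 weeks, and 109 to 475 CPM after synuclein and 72.4 to 174 CPM after saline at 7 weeks. Tmem119 was at 0 in a library of 3 of the 4 groups, and P2ry12 in a synuclein library at 12 weeks. The part of these cells in the difference was not tested. Pericyte and smooth muscle markers had a median of -0.64 (1 of 6 above 0), astrocyte markers -0.54 (2 of 6), pan-neuronal markers -0.17 (2 of 5) and ependymal markers 0.02 (3 of 5). For dopaminergic markers the median was -0.13 (3 of 8 above 0), and for oligodendrocyte markers it was -0.34 (2 of 8 above 0). These genes were expressed in the same libraries and their counts move together in part, so the 10 are not 10 independent observations.

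The time comparisons share libraries with those above and are given as their own values. After saline, the 12-week libraries were lower than the 7-week libraries in the folds of all 10 genes, with a median of -0.33 against 0.01 for all genes, although 1 to 3 of the 10 turned above 0 when upper-quartile scaling was used or single saline libraries were left out. The largest of these folds in size was that of Herpud1, at 98.3, 64.1 and 141 CPM at 12 weeks against 178, 168 and 199 CPM at 7 weeks, without overlap (-0.85 ± 0.29, edgeR adjusted p = 0.43). Hspa5 at -0.57 ± 0.29 and Hsp90b1 at -0.42 ± 0.23 did not overlap either, making 3 of 10 against 7.83% of all genes. Atf4 was at -0.58 ± 0.27 with overlap. Marker lists moved in both directions, with no marker called. Endothelial markers had a median of -0.55, with 0 of 8 above 0. They summed to 7411 to 9919 CPM at 12 weeks and 10290 to 18040 CPM at 7 weeks. Dopaminergic markers had a median of -1.18 (0 of 8 above 0), pan-neuronal markers -0.91 (0 of 5) and microglial markers -0.14 (3 of 8). Medians were 1.02 for oligodendrocyte markers (8 of 8) and 2.26 for ependymal markers (4 of 5). They were 0.34 for pericytes and smooth muscle (4 of 6), 0.28 for meningeal fibroblasts (2 of 4) and 0.12 for astrocytes (3 of 6). None of the 10 genes was called at an adjusted p under 0.05 (0.0% of all genes), and 2, Herpud1 and Atf4, had an unadjusted p under 0.05, against 7.42% of all genes.

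After synuclein, 8 of the 10 folds of 12 against 7 weeks were above 0, with a median of 0.50 against -0.06 for all genes. Hspa5 was at 0.79 ± 0.29, and at 0.24 without replicate 1 at 12 weeks. Calr, Canx and Ddit3, at 0.60 ± 0.27, 0.54 ± 0.23 and 0.70 ± 0.36, had every 12-week library above every 7-week library, against 5.13% of all genes. Atf4 at -0.17 ± 0.27 and Herpud1 at -0.27 ± 0.29 were below 0. None of the 10 genes was called at an adjusted p under 0.05 (0.0% of all genes), and 3, Hspa5, Calr and Canx, had an unadjusted p under 0.05, against 7.58% of all genes. Marker medians below 0 were -1.54 for microglia (0 of 8 above 0), -1.30 for dopaminergic neurons (0 of 8) and -0.98 for pan-neuronal markers (0 of 5). Pericyte and smooth muscle markers were at -0.86 (2 of 6) and astrocyte markers at -0.55 (1 of 6). Medians above 0 were 2.74 for ependymal markers (5 of 5) and 1.05 for meningeal fibroblasts (4 of 4). They were 0.81 for oligodendrocytes (8 of 8) and 0.02 for endothelium (5 of 8).

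Averaged over both treatments, 12 against 7 weeks gave 6 folds above 0 and 4 below, with a median of 0.12. This was the one comparison in which genes elsewhere passed the test, 145 of 17380 or 0.834%, and none of them was among the 10. Herpud1 came nearest, at -0.56 ± 0.20 (edgeR adjusted p = 0.29), followed by Atf4 at -0.37 ± 0.19 (edgeR adjusted p = 0.57). Herpud1 was the 1 gene with an unadjusted p under 0.05, against 9.82% of all genes. Marker levels of several cell types moved with time, which does not separate cell number from RNA per cell. Oligodendrocyte markers summed to 24810 to 42440 CPM at 12 weeks and 15660 to 24570 CPM at 7 weeks, and all 8 were above 0 in log2 fold, 5 of them called. Pan-neuronal markers summed to 308 to 547 CPM at 12 weeks and 680 to 1630 CPM at 7 weeks, and all 5 were below 0, 2 of them called. All 8 dopaminergic markers were also below 0, 2 of them called, and so were all 8 endothelial markers, at a median of -0.26 and with none called. The remaining lists had no marker called. Their medians were -0.82 for microglia (0 of 8 above 0), -0.32 for pericytes and smooth muscle (2 of 6) and 0.07 for astrocytes (3 of 6). Meningeal fibroblast markers were at 0.60 (4 of 4) and ependymal markers at 2.46 (5 of 5). The part of this in the time comparisons of the 10 genes was not tested.

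**Figure D3:**
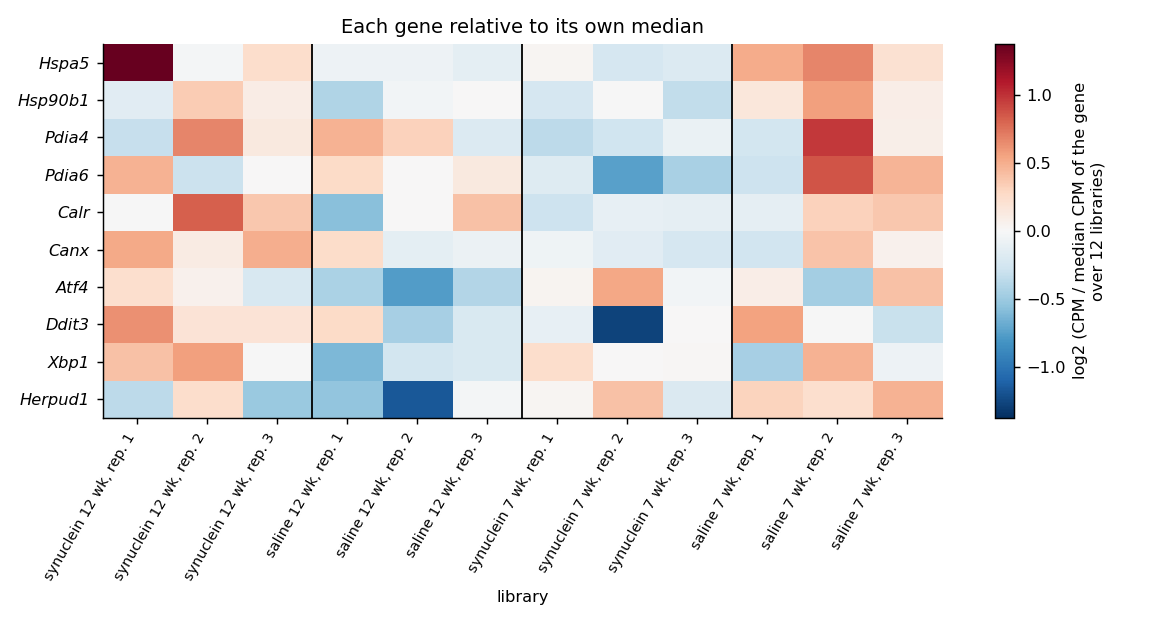
Level of each gene (rows) in each library (columns, grouped by treatment and time), as log2 of its CPM over its own median in 12 libraries, on a colour scale centred at 0. In replicates 2 and 3 of saline at 7 weeks 8 of the 10 genes sit above their median, and at least 6 of 10 do in each synuclein library at 12 weeks.

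Single libraries carried much of the variation. Replicate 2 of saline at 7 weeks was the highest of all 12 for 3 genes, Hsp90b1, Pdia4 and Pdia6, and above the gene's own median for 8 of 10, a count shared by replicate 3 of its group and replicate 2 of synuclein at 12 weeks. Replicate 1 of synuclein at 12 weeks was the highest for Hspa5, Canx and Ddit3, and replicate 2 for Calr and Xbp1. At the other end, replicate 2 of synuclein at 7 weeks was the lowest for Hspa5, Pdia6 and Ddit3, and replicate 1 of saline at 12 weeks for Hsp90b1, Calr and Xbp1. In replicate 2 of synuclein at 7 weeks Atf4 was at its highest (119 CPM) where Ddit3, which its protein is known to activate, was at its lowest (18.03 CPM). This is 1 library, in which Ddit3 rested on 79 fragments. Across the 12 libraries the Pearson r of log2 CPM for Atf4 with Ddit3 was -0.17. Over 45 pairs of the 10 genes the median Pearson r of log2 CPM was 0.23 across 12 libraries, from -0.51 for Pdia4 with Atf4 to 0.74 for Hsp90b1 with Calr, and 34 pairs were above 0. The points share library depth and cell makeup.

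Replicates 1 and 2 of synuclein at 12 weeks stood apart from the rest over all genes, replicate 2 on the first principal component and replicate 1 on the second. In replicate 2 only 17406 genes were seen in 1 fragment or more, while the other libraries had 19957 to 21126 such genes. Its depth was not low, at 5022488 fragments in a range of 2506730 to 5533322 over the 12 libraries. Among the 6 chaperone and isomerase genes, the excess in replicate 1 was largest in Hspa5. Canx was also at its highest there, at 516 CPM against 505.5 CPM in the next library, and Pdia6, at 185 CPM, was exceeded in 1 other library. Its ratio of Hspa5 to Hsp90b1 counts was 2.49, against 0.669 to 1.11 in the other 11 libraries, and its ratio of Hspa5 to Pdia4 counts was 9.84, against 1.88 to 5.19. Pdia4 there, at 77.9 CPM, was lower than in 10 of the 11. The cytosolic heat-shock genes Hspa1a, Hspa1b, Hspa8, Hsp90aa1 and Dnajb1 were all at their highest in the same library. Hspa1a, the inducible Hsp70, was at 122 CPM against 3.16 to 11.2 CPM elsewhere. Hsp90aa1, the inducible Hsp90, was at 1207 CPM against 345 to 841 CPM. Hspa1b was at 137 CPM against at most 22.2 CPM, Hspa8 at 3910 CPM against at most 2462 CPM and Dnajb1 at 171.5 CPM against at most 102.7 CPM. Ependymal and choroid plexus markers in replicate 1 summed to 430.5 CPM, against 5.72 to 192 CPM elsewhere. The part of any of these in its Hspa5 level was not tested. With replicates 1 and 2 both left out, the difference of the synuclein effect was still above 0 for 10 of the 10 genes, with a median of 0.71, and for Hspa5 it was 0.93. That fit has a single synuclein library at 12 weeks, which is assumed to vary like the other groups.

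**Figure D4:**
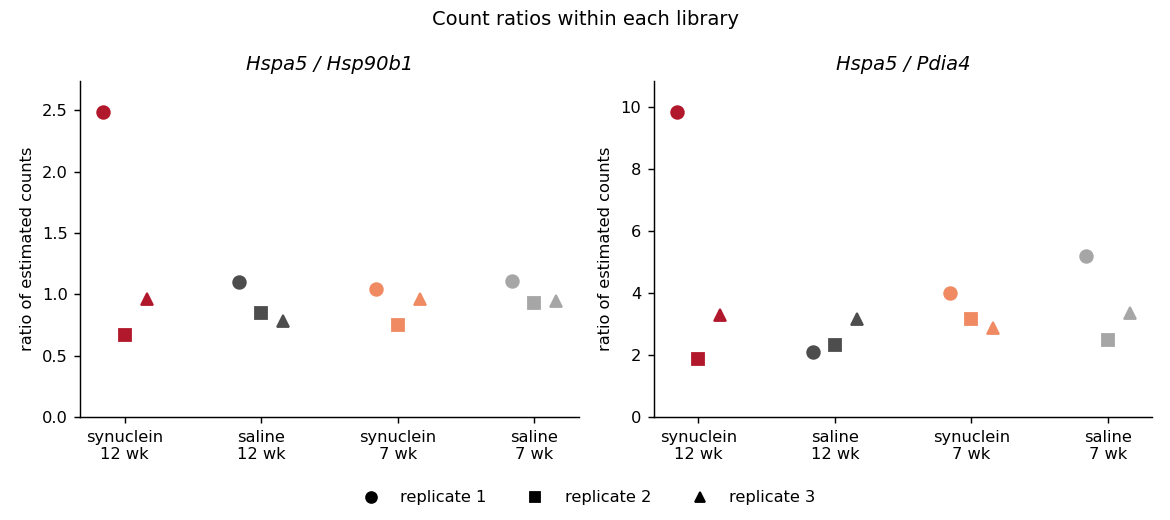
Ratio of the Hspa5 count to the Hsp90b1 count (left) and to the Pdia4 count (right) in each of 12 libraries, by group, on linear axes from 0. Replicate 1 of synuclein at 12 weeks lies at 2.49 and 9.84, above the other libraries, which reach 1.11 and 5.19.

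Over all 12 libraries, the genes whose log2 CPM followed Hspa5 most closely, among 11170 genes of at least 10 CPM outside the pathway, were Hspa1a with a Pearson r of 0.92, Hsp90aa1 with 0.88, Ccdc117 with 0.83, Mon1a with 0.82 and Hspa4l, an Hsp110 relative, with 0.82. Hspa1a averaged 16.3 CPM and reached the 10 CPM minimum through replicate 1 of synuclein at 12 weeks, the library where Hspa5 was highest. Without that library these were 0.82, 0.76, 0.59, 0.70 and 0.70 over 11 libraries. The nearest to Ddit3 were Tmem41b with 0.90, Unkl with 0.89, Mterf4 with 0.87, Ptcd3 with 0.87 and Mettl6 with 0.85, which were 0.84 to 0.88 without that library. These genes were picked as the most similar of many, so their values are a description.

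The rest of the pathway was read from a list of 113 further genes, of which 111 were tested. None passed the test in any of the 6 comparisons. For the difference of the synuclein effect between times, 71 were above 0 and 40 below. Their median of 0.14 lay between those of the 10 genes and of all genes, and single genes ran from -2.65 to 2.25. At an unadjusted p under 0.05 there were 5 above 0 and 1 below, 6 of 111, a share near the 4.49% of all genes, and their values are given as a description. The 5 were Ppib, a prolyl isomerase of the compartment, at 0.90 ± 0.40, Pdia3, the isomerase that works with calnexin and calreticulin, at 0.81 ± 0.36, the isomerase Tmx3 at 1.06 ± 0.48, Erp29 at 0.93 ± 0.42 and Lman1, a cargo receptor for glycoproteins, at 0.93 ± 0.40 (edgeR adjusted p = 0.95 for each). Shmt2, a mitochondrial serine enzyme under ATF4, was the 1 below, at -2.65 ± 0.98, with only 0.549 CPM in replicate 2 of synuclein at 12 weeks.

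Pdia3, the most highly counted of these 6, had 315, 315 and 376 CPM after synuclein at 12 weeks against 204, 268 and 328 CPM after saline. At 7 weeks Pdia3 had 309, 289 and 351 CPM after synuclein against 284, 564 and 479 CPM after saline. The groups overlapped at both times. Lman1 had 51.9, 70.5 and 60.6 CPM after synuclein at 12 weeks against 25.5, 45.0 and 40.5 CPM after saline, without overlap (0.72 ± 0.28, edgeR adjusted p = 0.89).

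By role, the difference between times had its highest medians in the translocon, the channel for nascent proteins, at 0.40 with 11 of 12 genes above 0, and in cell death and calcium genes, at 0.38 with 7 of 10. Chaperones and co-chaperones were at 0.31 with 13 of 17 and disulfide isomerases and oxidases at 0.25 with 9 of 14. Degradation genes were at 0.11 with 13 of 19. At 7 weeks 0 of the 12 translocon genes had a fold above 0, with a median of -0.24, and Sec61b, a subunit of the channel, was at -0.55 ± 0.28. The lowest median was that of glycoprotein quality control, a folding role, at -0.13 with 2 of 7 above 0. Sensors were at -0.06 with 2 of 4 above 0, translation and ATF4 targets at 0.00 with 11 of 22 and other stress transcription factors at 0.03 with 3 of 6.

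**Figure D5:**
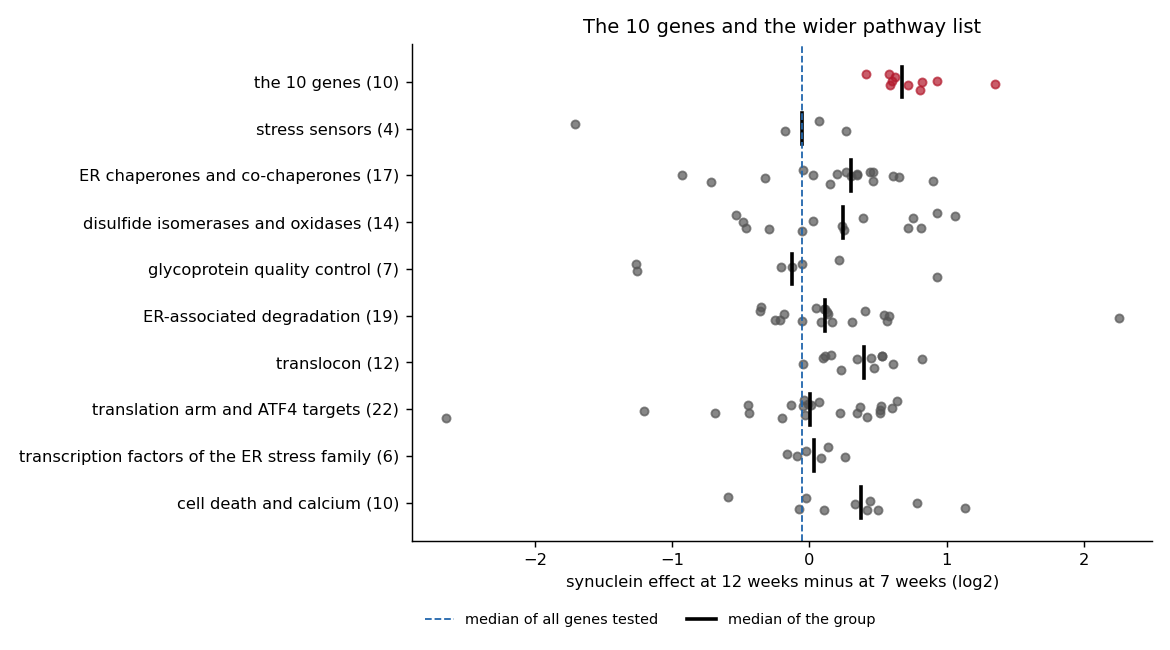
Synuclein effect at 12 weeks minus that at 7 weeks (log2, x axis) for the 10 genes and for 111 further pathway genes by role, with the number of genes in parentheses, 1 point per gene, a thick line at each median and a dashed line at the median of all tested genes, -0.05. The 10 genes lie between 0.41 and 1.35. Single genes of the other roles run from -2.65 to 2.25, some of them within or above the range of the 10. The medians of those roles lie between -0.13 and 0.40.

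Among the sensors, Ern1, which encodes IRE1, had 5.92, 3.29 and 5.38 CPM after synuclein at 12 weeks, against 12.8, 11.7 and 14.9 CPM after saline. These low-count values did not overlap, opposite in direction to Xbp1 in the same libraries, with a log2 fold of -1.43 ± 0.61 (edgeR adjusted p = 0.89). Ern1, Aars and Shmt2 were picked as among the 6 listed genes with the smallest unadjusted p here. Of the 111 genes, 4 above 0 and 2 below had an unadjusted p under 0.05, against 5.57% of all genes. The share of all genes apart in the direction of Ern1 is not given, so these values are a description. Atf6 was at -0.38 ± 0.39 and Atf6b at 0.21 ± 0.46 in the same comparison, where 1 of the 4 sensors was above 0. Of the ATF4 targets, Aars, a cytosolic alanyl-tRNA synthetase, had a mean of 96.9 ± 7.84 CPM after synuclein at 12 weeks and 61.8 ± 9.15 CPM after saline (SD, n = 3 each), a log2 fold of 0.65 ± 0.27 (edgeR adjusted p = 0.89). Over the 22 tested translation and ATF4 targets, 12 were above 0 and 10 below in this comparison, with a median of 0.05. The most counted of them, Slc7a5 and Slc3a2, were at 0.39 ± 0.28 and 0.24 ± 0.26, and Shmt2 and Phgdh were below 0. Shmt2 had 8.29 ± 7.53 CPM after synuclein and 29.1 ± 7.84 CPM after saline, without overlap, a log2 fold of -1.81 ± 0.71 (edgeR adjusted p = 0.89). Its synuclein values were low, at 8.7, 0.549 and 15.6 CPM, with replicate 2 near 0. Phgdh was at -0.29 ± 0.31.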

How the data were processed

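RNA was measured in 12 libraries, 4 groups of 3. The submitters' processing notes name TopHat2 2.0.13, Bowtie2 2.2.3 and Cufflinks 2.2.1 as the authors' tools. For each library the authors deposited estimated counts and FPKM, a length-scaled level, of 24346 genes. The deposited estimated counts were scaled by the authors: 98.7% to 98.9% of nonzero values were whole multiples, within 0.02, of 1 step per library (0.685 to 1.30), and dividing by it gave 2506730 to 5533322 fragments. Groups were taken from the labels.

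Rounded estimated counts entered edgeR 4.0.16 (R 4.3.3): filterByExpr (17380 genes left), TMM, a quasi-likelihood fit of 4 group means over 12 libraries (residual degrees of freedom, 8), and Benjamini-Hochberg adjustment over all 17380 genes with a threshold of 0.05, two-sided. CPM values are TMM-scaled, and the common biological coefficient of variation was 46.6%. The 10 genes rest on 79 to 2636 fragments per library. Standard errors are the log2 fold over the root of its F statistic. Correlations used log2 CPM with a prior count of 2. The procedure was tested on simulated data.

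Alternatives were RLE and upper-quartile factors, no low-count filter, DESeq2 1.42.0, limma 3.58.1 (voom on the counts, and log2 FPKM with pseudocounts of 0.1 and 1), recovered fragments in place of the deposited counts, the replicate number as a block, only the groups compared, each library left out, and replicates 1 and 2 of synuclein at 12 weeks left out together. No genome build is named in the labels or file headers used here. The 10 loci were compared with RefSeq for GRCm38.p6: all 10 starts and, for 8 of 10, both ends lay within 1000 bases, so coordinates are as deposited, counted from 1, and read as that build. Promoters came from RefSeq for GRCm38.p6.

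All 10 genes are named. Of the wider list, the genes with the smallest unadjusted p in a comparison (6 each) and the 2 with the highest CPM per role could be named. Members, lists and tests were chosen with earlier results of these data known.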

Additional observations from a re-analysis of the deposited data

Results flagged for a closer look

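The synuclein effect on Hspa5 differed in direction between the 2 times. In all 3 synuclein libraries at 12 weeks Hspa5 was above all 3 saline libraries, and in all 3 at 7 weeks it was below them. The difference of the log2 folds was 1.35 ± 0.41, which did not pass (edgeR adjusted p = 0.95), and it was 0.80 without replicate 1 of synuclein at 12 weeks.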

How the results depend on the processing

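None of the 10 genes was called under any alternative run, in any of the 6 comparisons; their smallest adjusted p was 0.12, from DESeq2 for 12 against 7 weeks after saline. Genes called elsewhere did depend on the processing. For synuclein against saline at 12 weeks there were 12 with DESeq2, 2 with log2(FPKM + 0.1) and 1 with log2(FPKM + 1), against 0, and for the difference between times 1 with each FPKM fit. After saline, 12 against 7 weeks gave 7 without the low-count filter, 173 with DESeq2, 34 with the replicate block, 2 and 1 with the FPKM pseudocounts of 0.1 and 1, 31 with only the groups compared and 6 without replicates 1 and 2 of synuclein at 12 weeks. After synuclein it gave 59 with DESeq2. Over both treatments, against 145, it gave 449 with DESeq2, 246 with the replicate block, 1 and 5 with the FPKM pseudocounts of 0.1 and 1, and 0 without those 2 replicates. Same-numbered libraries deviated together little or not at all (r from -0.06 to 0.11 over 18 pairs). With 3 libraries per group these values cannot settle whether the numbers pair the libraries. Leaving out single libraries gave 0 to 1 genes for synuclein against saline at 7 and at 12 weeks, 0 to 9 for time after saline, 0 to 2 for time after synuclein and 0 to 216 over both.

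Folds near 0 changed sign. Pdia4 at 12 weeks was 0.02 with RLE factors, DESeq2 and only the groups compared, and 0.04 without the filter; Canx after saline was 0.03 with upper-quartile factors; without replicates 1 and 2 of synuclein at 12 weeks, Xbp1 over time after synuclein was -0.10 and Hspa5 over both treatments -0.10. With single libraries left out, synuclein against saline ranged from -0.05 to 0.36 for Atf4 and -0.13 to 0.34 for Xbp1 at 7 weeks, and from -0.30 to 0.20 for Pdia4 and -0.28 to 0.12 for Pdia6 at 12 weeks. Time after saline ranged from -0.36 to 0.30 for Pdia4, -0.47 to 0.01 for Calr, -0.21 to 0.12 for Canx and -0.45 to 0.04 for Ddit3; time after synuclein from -0.27 to 0.03 for Atf4; and time over both from -0.17 to 0.24 for Hspa5, -0.13 to 0.03 for Hsp90b1 and -0.17 to 0.07 for Xbp1. Upper-quartile factors moved the median of all genes for the difference between times to -0.18, and that of the 10 genes to 0.53. The causes of these changes were not tested.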

Other observations

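Values of some further pathway genes for 12 against 7 weeks are given here, and none of them passed the test. Psat1 and Phgdh, serine synthesis enzymes under ATF4, were at log2 folds of 0.79 ± 0.21 and 0.87 ± 0.22 for 12 against 7 weeks over both treatments (edgeR adjusted p = 0.086 and 0.082). Sil1, the nucleotide exchange factor of BiP, averaged 75.6 ± 2.78 CPM after synuclein and 58.1 ± 13.1 CPM after saline at 12 weeks, and 43.1 ± 18.6 CPM after synuclein and 32.1 ± 4.29 CPM after saline at 7 weeks (SD, n = 3 each), a fold of 0.83 ± 0.23 (edgeR adjusted p = 0.11). In the other direction Slc7a5 and Slc3a2, the light and heavy chain of an amino acid transporter under ATF4, were at -0.66 ± 0.20 and -0.41 ± 0.18 (edgeR adjusted p = 0.14 and 0.45). The targets of ATF4 named here thus lay on both sides of 0. Over the 22 tested translation and ATF4 targets, 7 were above 0, with a median of -0.20. The genes named were picked for a small unadjusted p or a high CPM. Of the 111 listed genes, 8 above 0 and 3 below had an unadjusted p under 0.05 over both treatments, against 9.82% of all genes.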
